A study of Mus musculus with 21 samples.

Results

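The comparison described here is the genotype by time difference at day 28: the change from day 0 to day 28 in mammary organoids of Mre11 ATLD1/ATLD1 mice (ATLD below), minus the same change in wild-type (WT) organoids. It rests on 12 of the 21 libraries of the series, 3 in each of 4 groups: WT at day 0, WT at day 28, ATLD at day 0 and ATLD at day 28. Days count from the activation of the oncogene neuT, which the cultures of both genotypes carried. Polyadenylated RNA from these primary mammary epithelial organoids was read with a stranded kit and counted per gene. The labels do not say whether replicates were separate cultures or animals, which promoter drives neuT or how it was switched on, so p-values measure the spread between these libraries, which may be technical. All groups at day 28 had neuT switched on for as long as they had been in culture since day 0, so an effect of neuT and an effect of time in culture cannot be told apart. The original WT libraries were sequenced in a first batch and the ATLD libraries in a second one; the batch is the same at both days within a genotype and cancels from the difference only as far as it is additive on the log scale.

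Mre11 forms, with Rad50 and Nbn, the complex that senses DNA double-strand breaks, trims their ends and activates the kinase ATM. The ATLD1 allele models a truncating change found in ataxia-telangiectasia-like disorder and leaves a complex of reduced function. neuT is an activated form of the rat Erbb2 receptor, which signals through the ERK and PI3K pathways and drives mammary tumours in mice. The mammary epithelium has an inner luminal layer, which includes hormone-sensing cells and secretory progenitors that express Elf5, Kit and milk genes, and an outer basal or myoepithelial layer that expresses Krt5, Krt14, Trp63 and smooth muscle genes. A difference of differences sorts genes by whether the genotypes moved apart, whether a change was called in 1 genotype alone, or whether both moved together.

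The promoters below, chosen after the search for holding at least 1 match, are examples from the gene groups on which the results turn: 3 mitotic genes and 1 replication gene that fell in ATLD, 1 hypoxia gene that rose far more in WT, and 1 casein gene that fell far more in WT. Each stretch runs 5′ to 3′ on the gene's strand from 250 bases before to 50 bases after the start site, from RefSeq on GRCm38.p6. Capitals mark matches to the letters searched, on either strand: CCAAT for the CCAAT box and TTTGAA for the CHR element in the 3 mitotic genes, TTTCCCGC or TTTGGCGC for E2F in Pola1, ACGTG for the hypoxia response element in P4ha1, and TTCNNNGAA for STAT in Csn1s1. The stretches are chr2:118597961-118598260 for Bub1b and chr5:30666636-30666935 for Cenpa, both on the plus strand, chr13:100786437-100786736 for Ccnb1 and chrX:93632106-93632405 for Pola1, both on the minus strand, and chr10:59323046-59323345 for P4ha1 and chr5:87665958-87666257 for Csn1s1, both on the plus strand. Pola1 was chosen after its values were seen, as the replication gene with the smallest p that holds the E2F letters. Other named genes of these groups were searched the same way and had no match in this window: Birc5 for CCAAT and TTTGAA, Mcm10, Rrm2, Ccne1 and Prim1 for E2F, Pdk1 for ACGTG in either of its promoters, and Ltf and Lalba for STAT.
Bub1b: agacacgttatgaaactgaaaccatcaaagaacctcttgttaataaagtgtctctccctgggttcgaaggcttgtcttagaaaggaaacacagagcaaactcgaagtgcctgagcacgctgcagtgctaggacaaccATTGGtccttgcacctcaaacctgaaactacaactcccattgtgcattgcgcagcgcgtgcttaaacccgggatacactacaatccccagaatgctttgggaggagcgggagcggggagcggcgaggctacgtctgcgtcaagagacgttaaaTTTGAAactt
Cenpa: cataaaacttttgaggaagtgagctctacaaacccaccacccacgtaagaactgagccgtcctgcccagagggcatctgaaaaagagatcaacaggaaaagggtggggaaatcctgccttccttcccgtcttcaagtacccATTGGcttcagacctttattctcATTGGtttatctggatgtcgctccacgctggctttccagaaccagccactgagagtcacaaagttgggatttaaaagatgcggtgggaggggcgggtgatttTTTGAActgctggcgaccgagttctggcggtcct
Ccnb1: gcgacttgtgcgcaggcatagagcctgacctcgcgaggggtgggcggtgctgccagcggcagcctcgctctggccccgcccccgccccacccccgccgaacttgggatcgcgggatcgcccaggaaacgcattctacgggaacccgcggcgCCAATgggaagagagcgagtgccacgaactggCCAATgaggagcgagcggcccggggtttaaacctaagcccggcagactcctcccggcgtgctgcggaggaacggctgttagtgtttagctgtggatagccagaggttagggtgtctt
Pola1: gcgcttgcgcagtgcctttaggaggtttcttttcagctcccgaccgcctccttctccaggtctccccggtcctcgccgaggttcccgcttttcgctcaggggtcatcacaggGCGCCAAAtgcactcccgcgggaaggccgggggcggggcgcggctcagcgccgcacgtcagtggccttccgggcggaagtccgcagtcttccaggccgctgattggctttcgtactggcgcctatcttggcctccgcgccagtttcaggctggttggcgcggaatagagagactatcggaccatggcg
P4ha1: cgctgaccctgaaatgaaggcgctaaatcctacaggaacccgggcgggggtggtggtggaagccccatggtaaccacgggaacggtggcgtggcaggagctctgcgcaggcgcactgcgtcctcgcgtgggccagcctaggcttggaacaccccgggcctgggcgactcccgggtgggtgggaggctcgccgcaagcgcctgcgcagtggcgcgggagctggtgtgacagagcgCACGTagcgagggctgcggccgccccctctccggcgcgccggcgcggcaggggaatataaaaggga
Csn1s1: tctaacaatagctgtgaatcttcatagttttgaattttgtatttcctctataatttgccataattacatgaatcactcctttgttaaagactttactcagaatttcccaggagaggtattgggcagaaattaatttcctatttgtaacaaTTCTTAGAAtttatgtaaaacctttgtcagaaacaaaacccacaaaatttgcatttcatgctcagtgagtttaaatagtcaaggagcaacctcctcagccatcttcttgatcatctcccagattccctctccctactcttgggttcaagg

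Mre11a, the mutated gene itself (chr9:14784654-14837123, mm10), checked the genotype labels. Its level was 58.6, 54.4 and 53.3 CPM (counts scaled to a common library size, after TMM) in WT at day 0 and 45.1, 52.6 and 43.4 in WT at day 28. In ATLD it was 14.9, 14 and 15.4 CPM at day 0 and 14.8, 16.5 and 14.7 at day 28, below every WT library. The difference between the genotypes' changes was 0.30 ± 0.15 on the log2 scale (SE; adjusted p = 0.148). Erbb2, the mouse gene whose rat form is neuT, did not pass either (-0.41 ± 0.31, adjusted p = 0.352), with levels of 71.9 to 133 CPM over the 12 libraries that overlapped between all groups. Whether reads of the rat neuT message are counted in mouse Erbb2 is not stated in the labels.

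The 12 libraries held 30905703 to 43663874 counts in WT and 46331204 to 51757203 in ATLD. Replicates spread more in some groups than in others: the SD of the log2 ratio of 2 libraries was 0.118 to 0.204 in WT at day 0, and at day 28 it was 0.132 between WT replicates 1 and 3 but 0.441 and 0.459 in the pairs with replicate 2. In ATLD it was 0.245 to 0.381. Epithelial identity was plain in all groups, with Epcam at 567 to 1250 CPM. The leukocyte marker Ptprc was at most 0.166 and the endothelial marker Cdh5 at most 0.128 CPM. Fibroblast markers were not uniformly low: Col3a1 was at most 0.622, Dpt at most 0.166 and Col1a1 at most 2.96 CPM, but Pdgfra was at 34.9 to 37.5 in WT at day 0. The 10 fibroblast markers tested, most of whose level was Postn, summed to 964 to 1041 and then 1957 to 2612 CPM in WT and to 537 to 692 and then 799 to 1014 in ATLD. The part of fibroblasts in the results was not tested. The hormone-sensing luminal factor Foxa1 was at 101 to 118 CPM in WT but 3.12 to 6.76 in ATLD at both days. Lyz2 and Sftpc were at 4.28 to 9.12 and 4.56 to 10.6 CPM in the original WT libraries, but at most 0.0399 and 0.518 CPM in the WT libraries sequenced again with the ATLD ones and at most 0.0452 and 0.149 in ATLD. In bulk RNA, fewer cells of a type and less RNA per cell cannot be told apart.

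The genotypes differed in their change at 5396 of the 18079 genes tested (29.8%), 2652 with a more positive change in ATLD (14.7%) and 2744 with a more negative one (15.2%). These 14.7% and 15.2% are the background for all counts of positive and negative differences in the gene lists below. These calls and all adjusted p-values below come from edgeR's quasi-likelihood test with Benjamini-Hochberg adjustment over all genes tested, at a threshold of 0.05. From day 0 to day 28, 4790 genes were called in WT (26.5%; 2407 rose, 13.3%, and 2383 fell, 13.2%). In ATLD 5966 were called (33.0%; 2877 rose, 15.9%, and 3089 fell, 17.1%). Across genes the 2 changes were nearly unrelated (Pearson r = -0.073 over 18079 genes, which are not independent replicates). The median change over all genes tested was 0.022 in WT and -0.014 in ATLD on the log2 scale, and the median difference was -0.043. Just inside the threshold lay Harbi1 (difference 0.38, adjusted p = 0.04999) and Ankrd9 (0.98, 0.04999), and just outside Slc4a8 (-1.60, 0.05001) and Exo5 (0.35, 0.05008).

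Opposite changes, called in both genotypes with different signs and in the difference, were found for 1240 genes (6.86% of those tested). Of these, 611 rose in WT and fell in ATLD, and 629 fell in WT and rose in ATLD. Changes called in WT alone, with the difference also called, numbered 1486 (8.22%; 697 rose and 789 fell), and those in ATLD alone 1973 (10.9%; 870 rose and 1103 fell). Another 366 genes (2.02%) moved in the same direction by different amounts, the WT change being the larger in 215, and for 331 the difference alone was called. Shared changes were called in both genotypes in the same direction with a 95% interval of the difference within 2-fold either way, and numbered 548 (3.03%; 296 rose and 252 fell). A further 207 moved in the same direction with a wider interval and are counted in no class of difference. "WT-specific" and "ATLD-specific" stand below for a change called in 1 genotype and not in the other, together with a called difference. A change that was not called is not shown to be absent.

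**Figure D1:**
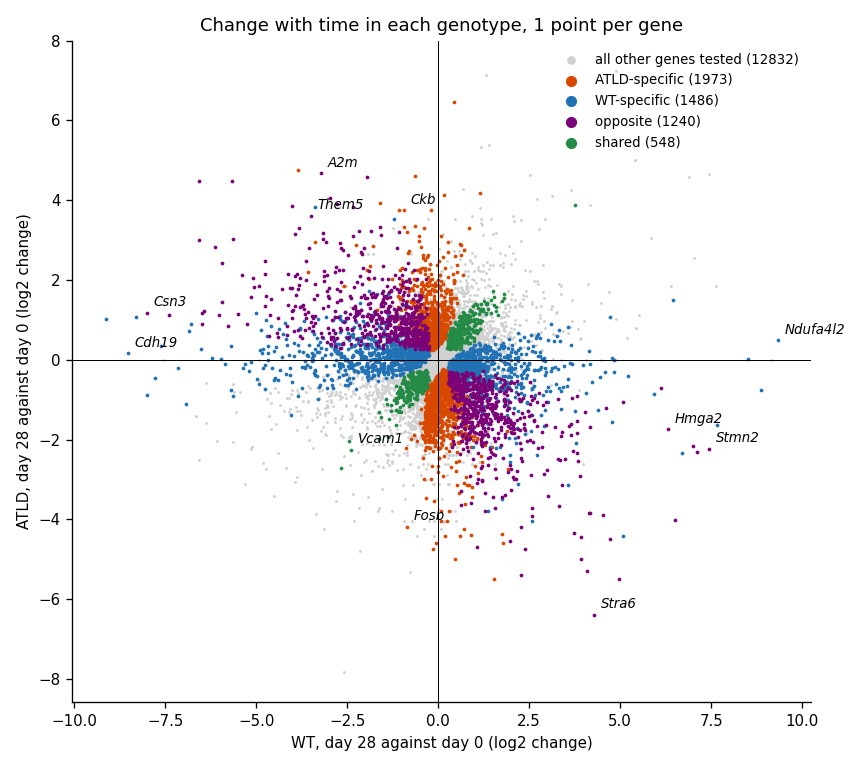
Change from day 0 to day 28 in WT (x axis) and in ATLD (y axis), each as a log2 fold change, with 1 point per gene tested. Colours mark the 1240 opposite, 1486 WT-specific, 1973 ATLD-specific and 548 shared genes, with the other 12832 genes in grey; opposite genes lie to the upper left and lower right and shared genes lie along the rising diagonal.

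Typical sizes differed between classes. Opposite genes had a median absolute change of 1.17 in WT and 1.03 in ATLD on the log2 scale, and a median absolute difference of 2.34. Of the 1240, 1117 differed by at least 2-fold and 473 changed at least 2-fold in both genotypes. In 1184 of them the day 0 and day 28 libraries did not overlap in either genotype. The same held for 521 of the 548 shared genes and 353 of the 366 that moved in the same direction by different amounts. All these classes require a call in both genotypes, so the separation is not particular to opposite genes. Outside them it held for 352 of the 1486 WT-specific and 568 of the 1973 ATLD-specific genes. Of the 9353 genes with no call at all, it held for 199. WT-specific genes had medians of 1.2 in WT and 0.22 in ATLD, ATLD-specific genes 0.19 in WT and 0.84 in ATLD, and shared genes 0.62 and 0.64.

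Among the genes that fell in WT and rose in ATLD, the milk protein Csn3 (kappa-casein, which keeps casein micelles in suspension; chr5:87925579-87932665) had the largest difference of those named. It was at 6655, 5711 and 5846 CPM in WT at day 0 and at 21.4, 24.6 and 25.3 at day 28. The ATLD libraries held 3946, 4946 and 5681 CPM at day 0 and 12426, 11145 and 9295 at day 28. WT was slightly above ATLD at day 0 and far below it at day 28. That the days do not overlap in either genotype was a condition for naming an opposite gene. On the log2 scale Csn3 fell by 8.0 in WT and rose by 1.17 ± 0.15 in ATLD, a difference of 9.17 ± 0.24 (adjusted p = 5.18e-11). Crispld2, which encodes a secreted protein of the CAP family (chr8:119992438-120052793), showed the same course. Its levels were 401, 449 and 535 CPM and then 5.76, 4.04 and 5.49 in WT, against 534, 432 and 489 and then 804, 831 and 1059 in ATLD. Its difference was 7.38 ± 0.25 (adjusted p = 1.89e-10).

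Them5, a mitochondrial acyl-CoA thioesterase (chr3:94342099-94347352), moved by similar amounts in either direction. WT levels were 15.1, 14 and 13.6 CPM at day 0 and 0.905, 1.48 and 1.37 at day 28, a log2 change of -3.51 ± 0.20. ATLD levels were 7.69, 10.7 and 12 CPM and then 130, 133 and 108, a change of 3.61 ± 0.18, and the difference was 7.12 ± 0.27 (adjusted p = 4.17e-10). Ankrd1, a nuclear ankyrin-repeat protein whose gene is a target of YAP (chr19:36111961-36120099), nearly vanished from WT. It went from 5.99, 5.73 and 5.86 CPM to 0.0929, 0 and 0.0845 in WT (4, 0 and 4 counts), and from 33.3, 27.5 and 27.1 CPM to 74.6, 64.2 and 59.1 in ATLD. Its fitted difference was 7.65 ± 0.34 (adjusted p = 1.89e-09), and 6.50 in the second batch alone. Rtn1, a reticulon of the endoplasmic reticulum, fell from 17.1, 18.3 and 17.3 CPM to 0.371, 0.137 and 0.275 in WT. In ATLD it rose from 4.59, 3.85 and 4.11 CPM to 8.88, 8.82 and 9.65, a difference of 7.15 ± 0.26 (adjusted p = 3.62e-10). A2m, the protease inhibitor alpha-2-macroglobulin, was scarce in WT, with 41 counts over the 3 libraries at day 0 and 4 at day 28, a ratio of CPM of 10.2 (95% exact interval 3.68 to 39.0, counting error only). In ATLD it rose from 1.22, 0.919 and 0.743 CPM to 21.2, 22.2 and 30.6, a change of 4.68 ± 0.21, and the fitted difference was 7.89 ± 0.52 (adjusted p = 7.06e-08).

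In the other direction, with a rise in WT and a fall in ATLD, the genes with the largest differences were low at day 0 in WT. Stmn2, a stathmin that regulates microtubules (chr3:8509360-8561606), was at 0.104, 0.118 and 0.0635 CPM in WT at day 0 and at 16.3, 16.6 and 17.1 at day 28. The ATLD libraries went from 5.55, 3.81 and 5.55 CPM to 1.02, 1.25 and 0.888. The genotypes crossed over, and the difference was -9.68 ± 0.32 (adjusted p = 1.89e-10). Hmga2, a chromatin-binding protein of fetal tissues (chr10:120361275-120476469), rose from 0.125, 0.235 and 0.106 CPM to 10.8, 12.6 and 12.5 in WT and fell from 4.19, 3.05 and 2.80 CPM to 0.704, 1.25 and 1.03 in ATLD. Its difference was -8.05 ± 0.38 (adjusted p = 2.52e-09), and -7.08 in the second batch alone. Stra6, the membrane receptor for the retinol carrier protein, rose from 0.0626, 0.235 and 0.190 CPM to 3.27, 1.95 and 3.99 in WT. It fell from 8.24, 6.14 and 6.86 CPM to 0.0681, 0.148 and 0.0234 in ATLD, a difference of -10.67 ± 0.58 (adjusted p = 1.08e-08), and of -11.47 without replicate 2 of ATLD at day 28. The remaining named genes had this pattern too. Alox12e, an epidermal lipoxygenase, rose from 0.522, 0.647 and 0.423 CPM to 20.3, 13.1 and 19.5 in WT and fell from 101, 115 and 121 CPM to 53.6, 64.5 and 44.2 in ATLD (difference -6.13 ± 0.29). Aqp3, a water and glycerol channel of basal keratinocytes, rose from 2.23, 2.21 and 2.83 CPM to 48.2, 31.7 and 52.2 in WT and fell from 5.68, 3.81 and 4.68 CPM to 1.36, 1.25 and 1.78 in ATLD (difference -5.87 ± 0.31). Hhip, which binds and restrains hedgehog ligands, rose to 8.13, 10.2 and 9.25 CPM from 0.688, 0.823 and 0.423 in WT and fell to 0.0681, 0.0423 and 0.304 CPM from 1.07, 0.986 and 0.328 in ATLD. Its difference was -6.39 ± 0.66, and -7.64 without replicate 3 of ATLD at day 28.

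**Figure D2:**
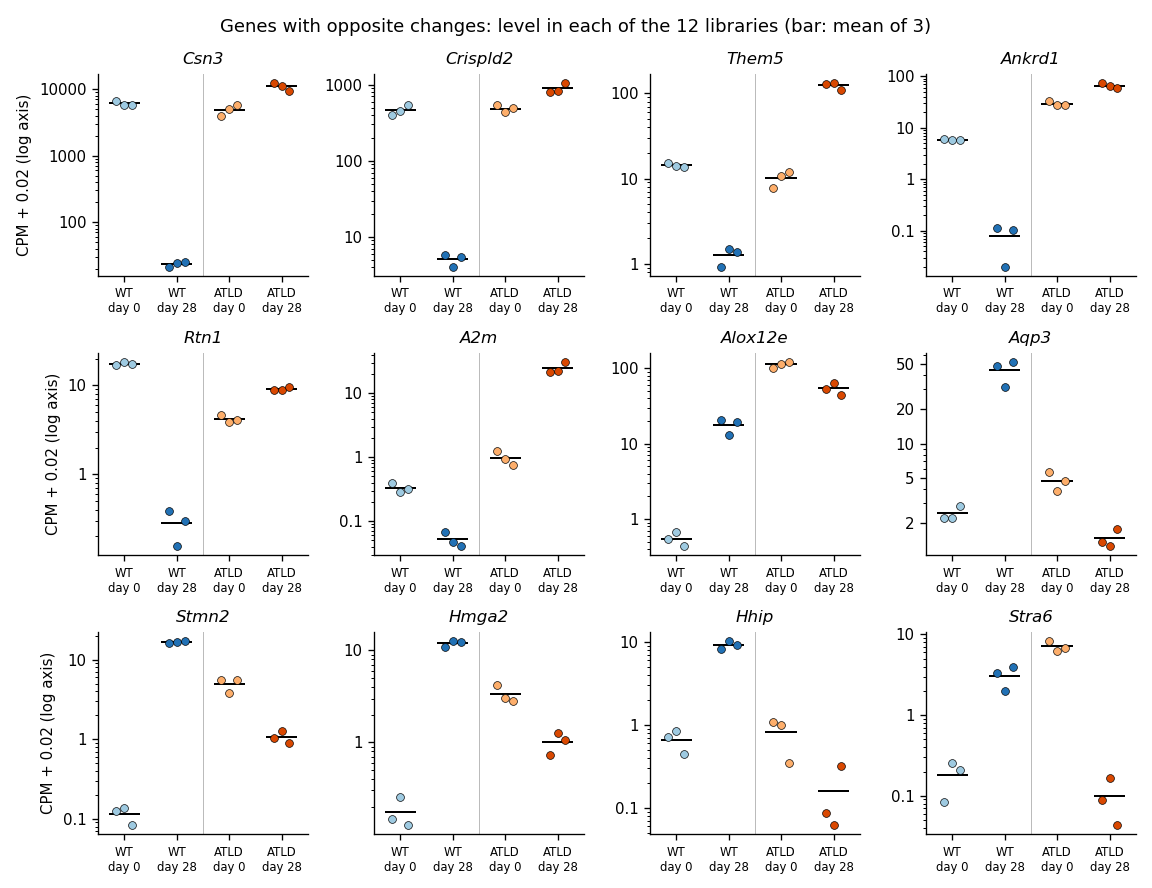
Level of the 12 opposite genes named above in each library (points; CPM plus 0.02 on a log axis) by genotype and day, with bars at the mean of 3 libraries. In each panel the days do not overlap within a genotype and the genotypes move in different directions, as the rule that named these genes required.

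Luminal progenitor markers were lower at day 28 in WT and mostly not in ATLD. All 15 fell in WT (median -2.15), whereas 8 rose and 4 fell in ATLD (median 0.34), and 13 of 15 had a called positive difference (median 2.57; 14.7% of all genes). Opposite changes made up 8 of the 15. Ltf, the iron-binding milk protein lactotransferrin, went from 1496, 1409 and 1279 CPM to 28.3, 22.8 and 25.4 in WT and from 6275, 5833 and 6559 CPM to 10972, 10184 and 12402 in ATLD, a difference of 6.62 ± 0.18 (adjusted p = 5.18e-11). Lcn2, an iron-scavenging defence protein, fell by 4.03 in WT and rose by 1.22 in ATLD. Elf5, the transcription factor that specifies secretory progenitors (chr2:103411688-103450989), fell from 278, 267 and 265 CPM to 24.4, 22.3 and 21.2 in WT. In ATLD its libraries overlapped between days, at 556, 620 and 690 CPM and then 703, 672 and 608, so it was WT-specific (difference 3.67 ± 0.15, adjusted p = 1.03e-09). Tnfaip2 was the 1 marker whose change was shared, and Rspo1 fell in both with a wide interval. The mean log2(CPM + 0.5) of the 15 markers was 8.37 to 8.50 in WT at day 0 and 5.6 to 5.88 at day 28, but 9.29 to 9.45 and then 9.69 to 9.82 in ATLD.

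Milk and secretion genes moved much the same way. Of the 14 tested, 10 fell and 2 rose in WT (median -2.52), 7 rose and 2 fell in ATLD (median 0.44), and the difference was positive in 11 and negative in 1 (median 2.90). Lalba, the alpha-lactalbumin subunit of lactose synthase, fell from 3.36, 2.0 and 3.32 CPM to 0.395, 0.247 and 0.317 in WT and rose from 0.149, 0.134 and 0.284 CPM to 1.59, 1.86 and 1.73 in ATLD (difference 6.33 ± 0.42, and 5.58 in the second batch alone). Csn1s1, whose promoter is printed above, fell in both: from 40.4, 36.4 and 40.8 CPM to 2.21, 1.65 and 1.90 in WT, and from 292, 309 and 393 CPM to 149, 163 and 146 in ATLD. The fall in WT was the larger, by 3.22 ± 0.19. Its promoter holds a match to the STAT letters at -100 from the start site, as do 22.2% of the 9 promoters of this list and 6.8% of the promoters of all genes tested. General luminal markers followed in part: of 15, 10 fell and none rose in WT (median -0.89), 4 rose and 3 fell in ATLD (median 0.06), and 8 had a positive and 1 a negative difference. Muc1, a luminal surface mucin, was ATLD-specific, at 7.99, 6.63 and 7.17 CPM and then 26.3, 27.9 and 43.1 in ATLD and at 5.28 to 8.52 CPM over the 6 WT libraries.

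Basal keratins and squamous genes moved the other way. Among 20 basal and myoepithelial markers, 10 rose and 7 fell in WT (median 0.48), 2 rose and 16 fell in ATLD (median -1.07), the difference was negative for 11 and positive for 5, and 10 were opposite. Krt5, the basal keratin (chr15:101707070-101712898), rose from 740, 971 and 1015 CPM to 3810, 2180 and 3761 in WT and fell from 1665, 1496 and 1711 CPM to 830, 742 and 808 in ATLD (difference -2.87 ± 0.27, adjusted p = 1.83e-06). The smooth muscle genes of the list did not follow the keratins. Tagln, an actin-binding protein, fell in both genotypes, from 22.7, 26.6 and 28.5 CPM to 2.21, 1.98 and 2.20 in WT and from 14.9, 16.9 and 13.4 CPM to 4.27, 5.24 and 4.56 in ATLD, and Cnn1, another, fell in WT by 3.37. Oxtr, the oxytocin receptor of milk ejection, went from 94.2, 87.1 and 91.0 CPM to 63.5, 64.3 and 62.8 in WT and from 115, 112 and 102 CPM to 228, 214 and 277 in ATLD.

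Squamous differentiation genes, which build the cornified layer of skin, rose in WT for 14 of 18 and fell for none (median 1.55). In ATLD 2 rose and 9 fell (median -0.60), and the difference was negative for 12 and positive for 1 (median -2.28; negative for 15.2% of all genes). Krt6a, a keratin of stressed epidermis (chr15:101689910-101694307), rose from 39.2, 41.5 and 43.0 CPM to 130, 111 and 125 in WT and fell from 25.9, 18.2 and 20.7 CPM to 5.15, 5.82 and 4.93 in ATLD (difference -3.59 ± 0.19, adjusted p = 6.57e-09). Krt6a has a near-identical neighbour, Krt6b, and how reads that map to both were counted is not given in the labels. Krt16, its usual partner keratin, rose by 3.59 in WT and fell by 1.65 in ATLD, and Calml3, an epithelial calmodulin, rose by 2.54 and fell by 0.90. With only the second batch, which holds 1 WT library a day, 8 squamous genes were called in WT.

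Hypoxia and glycolysis genes rose in WT for all 22 tested (median 1.14), while 10 rose and 4 fell in ATLD (median 0.28). The difference was negative for 15 and positive for 1 (median -1.36), with 8 of the 22 WT-specific, 5 shared and 4 opposite. Vegfa, the vascular growth factor (chr17:46016993-46032369), was at 14.1, 15.6 and 15.6 CPM in WT at day 0 and at 274, 192 and 250 at day 28, against 29.8, 25.8 and 25 and then 25.3, 23.3 and 25.5 in ATLD. The difference was -4.10 ± 0.19 (adjusted p = 2.11e-09). P4ha1, a collagen prolyl hydroxylase, went from 23.2, 23.8 and 24.3 CPM to 131, 139 and 127 in WT and from 24.2, 17.9 and 19.8 CPM to 26.5, 25 and 26.4 in ATLD, a difference of -2.14 ± 0.15. Its promoter, printed above, has an ACGTG match at -16, as do 48.3% of the 29 promoters of this list and 23.9% of those of all genes tested. Pdk1, which shuts pyruvate out of the mitochondrial citric acid cycle, and Ero1l, an oxidase of the endoplasmic reticulum, were opposite, rising by 1.10 and 1.26 in WT and falling by 0.49 and 0.62 in ATLD. In the second batch alone 14 of the 22 were called in WT.

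**Figure D3:**
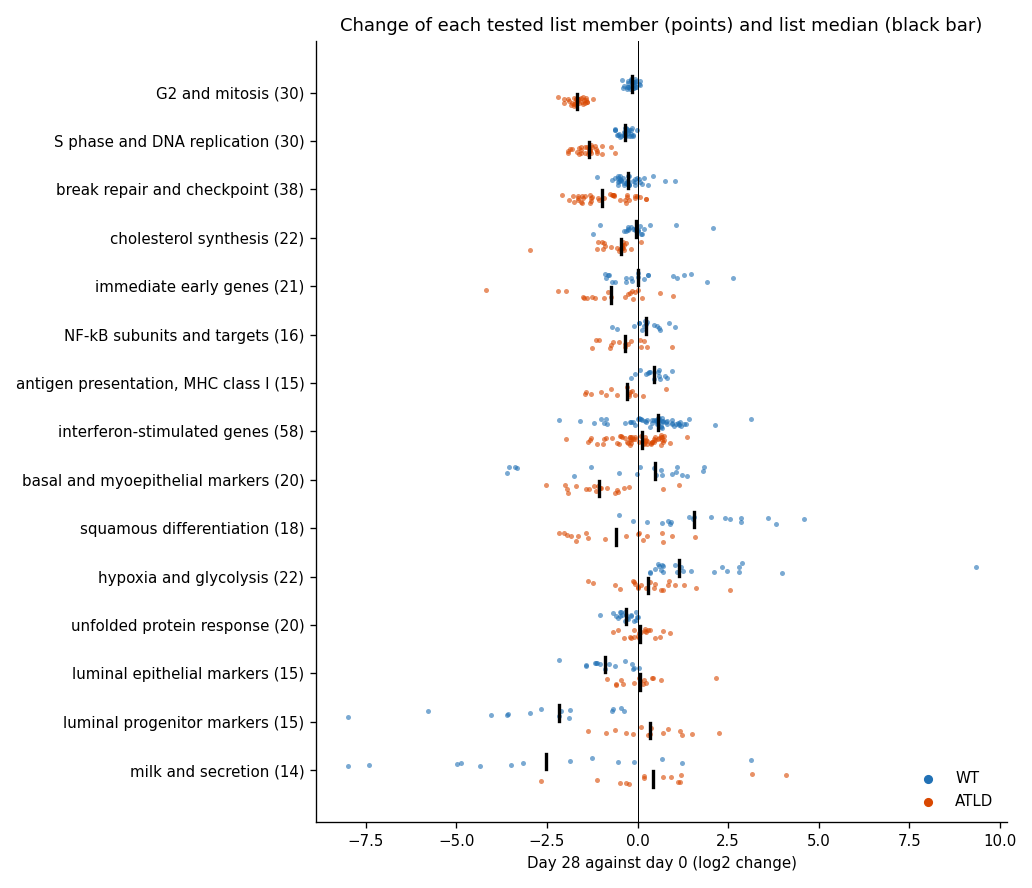
Log2 change from day 0 to day 28 of the tested members of 15 gene lists in WT (blue) and ATLD (orange), 1 point per gene, with a black bar at each median. In WT luminal progenitor genes lie below 0 and hypoxia genes above 0, and the medians of milk and squamous genes lie at -2.52 and 1.55 with some members on the other side; G2 and mitosis genes lie below 0 in ATLD.

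The WT-specific genes with the largest differences included hypoxia-responsive and metabolic genes outside that list. Ndufa4l2, a mitochondrial protein induced by the hypoxia factor HIF (chr10:127514967-127517154), was at 0.0626, 0.0294 and 0.317 CPM in WT at day 0 and at 119, 57.8 and 110 at day 28. The ATLD libraries stayed low and overlapped between days, at 1.49, 0.605 and 0.350 CPM and then 1.86, 0.507 and 1.12. Its fitted difference was -8.83 ± 0.89 (adjusted p = 4.28e-06), -10.36 without replicate 3 of WT at day 0 and -8.05 without replicate 1 of ATLD at day 0. Slc16a3, the lactate exporter of glycolytic cells, rose from 0.459, 0.588 and 0.656 CPM to 42.5, 19.5 and 41.0 in WT (difference -6.76 ± 0.59). Pygl, a glycogen phosphorylase, rose from 1.29, 1.76 and 1.54 CPM to 30.9, 25.9 and 26.2 in WT, with 0.771 to 1.39 CPM over the 6 ATLD libraries (difference -4.28 ± 0.31). Sncg, gamma-synuclein, rose from 1.98, 3.23 and 2.41 CPM to 60.3, 39.2 and 64.5 in WT (difference -4.88 ± 0.31). Kif26a and Rgs16 complete the rising set, with differences of -5.03 and -4.83, the latter -6.69 in the second batch alone. Slc16a3, Sncg and Kif26a were called as falling in ATLD too, and so as opposite, in 5, 5 and 6 of 22 other settings, among them the GC content offset and leaving out replicate 2 of WT at day 28.

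Genes named by the same rule also fell in WT without a called change in ATLD. Cdh19, a cadherin (chr1:110888326-110977584), was at 11, 9.0 and 9.46 CPM in WT at day 0 and had 3 counts in all over the 3 WT libraries at day 28. The ratio of CPM from day 0 to day 28 was 423 (95% exact interval 144 to 2050, counting error only), and it was 16.7, 16.8 and 17.7 and then 17.1, 20.7 and 19.6 CPM in ATLD. The fitted difference, 8.70 ± 0.43, depends on the prior count and ranged from 7.57 in the second batch alone to 11.94 without replicate 2 of WT at day 28. Ntn1, the guidance cue netrin-1, fell from 209, 251 and 249 CPM to 11.8, 7.01 and 11.9 in WT and was at 384, 271 and 252 and then 330, 300 and 432 in ATLD (difference 4.75 ± 0.31, adjusted p = 5.79e-08). Grb10, an imprinted adaptor of growth factor receptors, fell from 18.7, 17.4 and 17.6 CPM to 0.279, 0.632 and 0.549 in WT and was between 17.1 and 24.8 in ATLD. Piezo2, a mechanically gated channel, fell from 13.0, 12.8 and 12.3 CPM to 0.0232, 0.0550 and 0.169 in WT, and Agt, angiotensinogen, from 1.23, 1.29 and 1.31 CPM to 2, 0 and 5 counts. Their differences moved by more than 1.5-fold in other settings. Without replicate 3 of WT at day 28 Piezo2 went from 6.94 to 8.07 and Agt from 4.79 to 5.84, and in the second batch alone they were 7.81 and 3.52. Agt was also lower with the resequenced runs (4.01) and with both runs (4.21). Dlx6, a homeobox factor, had 3 counts in each WT library at day 0 and 0 at day 28, so no fold is given, and 3.74 to 5.93 CPM in ATLD.

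**Figure D4:**
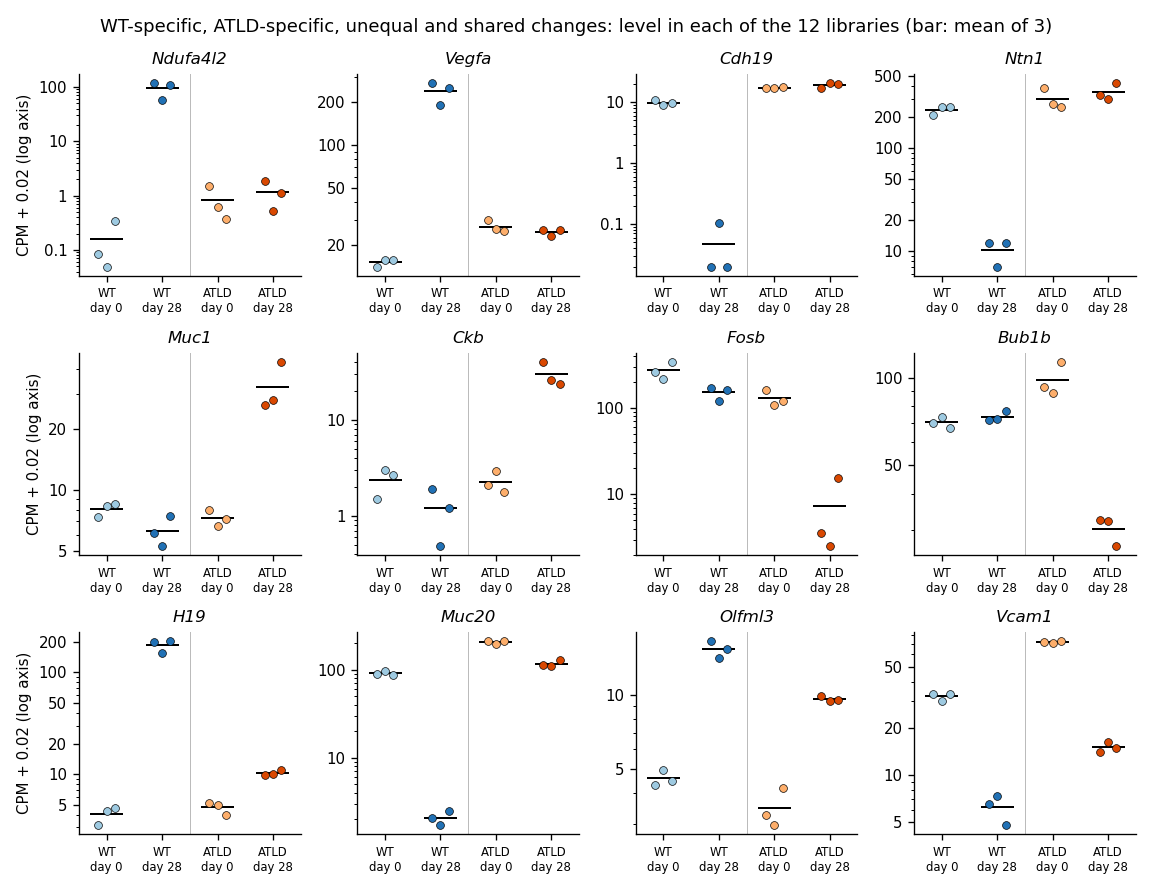
Level of 12 genes from the other classes in each library (points; CPM plus 0.02 on a log axis) by genotype and day, with bars at the mean of 3 libraries. Changes were called in WT alone for Ndufa4l2, Vegfa, Cdh19 and Ntn1, and in ATLD alone for Muc1, Ckb, Fosb and Bub1b. H19 and Muc20 changed in both by different amounts, and Olfml3 and Vcam1 in both alike. Fosb was also lower at day 28 than at day 0 in every WT library, although that change was not called.

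The cell cycle genes made up the most uniform ATLD-specific group. All 30 G2 and mitosis genes fell in ATLD (median -1.67, from -2.20 in Cenpf to -1.22 in Ccnb2), against 17.1% of all genes. In WT, Ccna2 and Nek2 fell and none rose (median -0.14). The difference was negative for all 30 (median -1.48), so 28 were ATLD-specific and Ccna2 and Nek2 moved in the same direction by different amounts. Without replicate 2 of WT at day 28, 6 of the 30 were called in WT. Bub1b, a kinase of the spindle checkpoint, was at 70.1, 73.3 and 67.1 CPM in WT at day 0 and at 71.5, 72.1 and 76.6 at day 28. In ATLD it fell from 92.9, 88.2 and 113 CPM to 32.4, 32.2 and 26.5 (difference -1.76 ± 0.16, adjusted p = 1.73e-06). Cenpa, the centromeric histone, and Ccnb1, the cyclin that drives entry into mitosis, followed, with differences of -1.78 ± 0.17 and -1.72 ± 0.18. ATLD was above WT at day 0 and below it at day 28 for the group's mean log2(CPM + 0.5), which was 5.82 to 5.99 and then 5.72 to 5.82 in WT, and 6.41 to 6.61 and then 4.65 to 4.96 in ATLD.

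The promoters of this group often hold 2 features. Of the 25 promoters of the 24 members found in RefSeq, 84.0% hold CCAAT and 72.0% hold TTTGAA, against 37.3% and 12.5% of the 15174 promoters of genes tested. In the printed stretches Bub1b has them at -113 and 41 from the start site, and Cenpa has CCAAT at -109 and -86 and TTTGAA at 17. Ccnb1 has CCAAT at -99 and -67 and no TTTGAA in this window. CCAAT was about as frequent in other lists, in 82.4% of the 17 cholesterol synthesis and 78.6% of the 14 MHC class I promoters. Among promoters of opposite genes, TTTGAA was found in 12.2% of those of genes that rose in ATLD and 14.3% of those of genes that fell. Promoters of all ATLD-specific genes that fell held TTTGAA in 20.4% and CCAAT in 43.3%. A match is a description of letters, not of a site in use.

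Replication genes fell in ATLD and, for fewer members, in WT. Of 30, 29 fell in ATLD (median -1.34) and 10 in WT (median -0.34), none rose, and 27 had a negative difference (median -1.08). The count of 10 in WT became 4 without replicate 1 of WT at either day, 6 without replicate 2 of WT at day 0 and 0 in the second batch alone. Pola1, the catalytic subunit of the priming DNA polymerase, fell by 1.55 ± 0.14 in ATLD, and its mean level went from 85.0 to 29.1 CPM. In WT it was at 70.9 and then 56.0 CPM (log2 change -0.34 ± 0.14, adjusted p = 0.0822), and the difference was -1.21 ± 0.19 (adjusted p = 0.000257). Its promoter has an E2F match at -138, as have 32.1% of the 28 promoters of the list and 2.7% of those of genes tested. Mcm10, which acts in activating the loaded replicative helicase, and Rrm2, which supplies deoxynucleotides, fell by 1.86 and 1.91 in ATLD.

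Break repair and checkpoint genes fell in ATLD for 29 of 38 and rose for none (median -0.98). In WT 15 fell and 3 rose (median -0.27), and the difference was negative for 25 and positive for 1, Lig4 (median -0.78). Brca1, a recombination mediator, went from 39.9, 31.7 and 38.1 CPM to 9.29, 11 and 9.44 in ATLD and from 45.2, 40.3 and 38.0 CPM to 29.8, 37.7 and 32.9 in WT (difference -1.58 ± 0.18). Rad51b, a recombination factor, and Rbbp8, which starts end trimming with the Mre11 complex, were opposite. Rad51b rose from 5.72, 5.88 and 5.37 CPM to 11.5, 12.8 and 10.8 in WT and fell from 7.13, 8.47 and 7.91 CPM to 3.70, 3.34 and 2.73 in ATLD (difference -2.31 ± 0.19, adjusted p = 6.18e-07). In the second batch alone the difference was negative for 11 of the 38, and the 18 genes called in WT were 11 without replicate 2 of WT at day 0 or replicate 1 of WT at day 28. The p53 targets were divided: of 30, 5 rose and 5 fell in WT, 2 rose and 7 fell in ATLD, and 6 had a negative and 2 a positive difference (20% and 6.7%, against 15.2% and 14.7% of all genes). The 10 called in WT were 6 without replicate 2 of WT at day 0. Cdkn1a, the cell cycle inhibitor p21, rose from 60.9, 66.3 and 65.3 CPM to 167, 147 and 170 in WT. In ATLD it was at 140, 135 and 152 and then 184, 178 and 149 CPM (log2 change 0.26 ± 0.10, adjusted p = 0.0738).

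**Figure D5:**
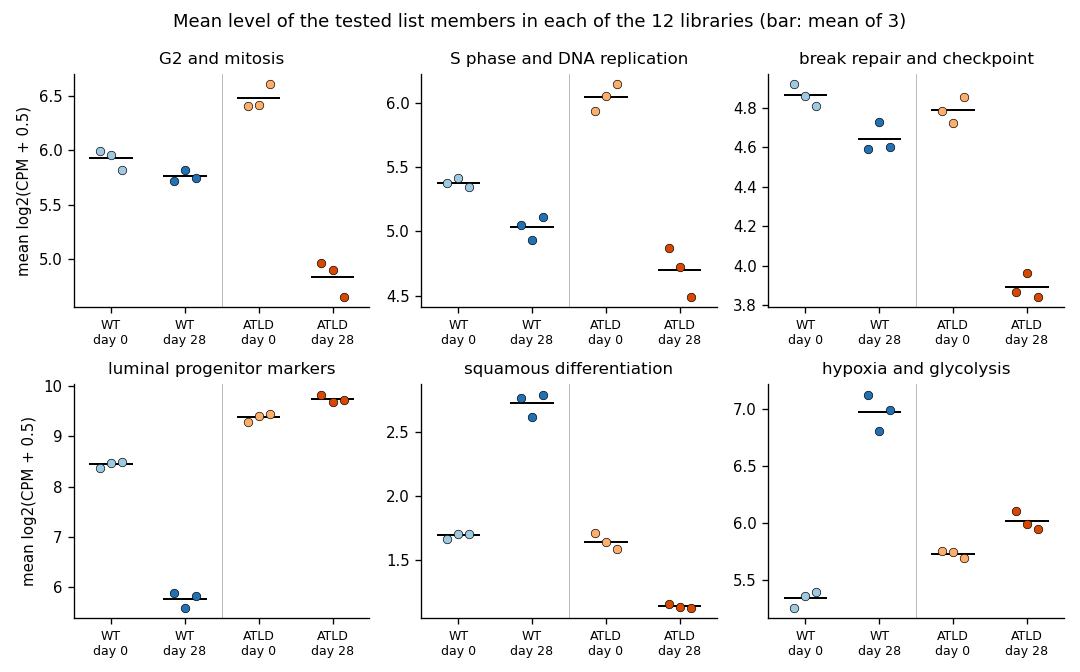
Mean log2(CPM + 0.5) of the members of 6 gene lists in each library (points) by genotype and day. G2 and mitosis, S phase and repair genes drop from day 0 to day 28 in ATLD, luminal progenitor markers drop in WT, and squamous and hypoxia genes climb in WT.

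Outside the cell cycle, ATLD-specific rises with the largest differences began from low levels. Ckb, brain-type creatine kinase (chr12:111669361-111672338), went from 2.05, 2.91 and 1.75 CPM to 40, 26.1 and 23.8 in ATLD and was at 0.467 to 3.0 CPM over the 6 WT libraries (difference 4.69 ± 0.53, adjusted p = 1.18e-05). Itga7, a laminin receptor subunit, went from 0.918, 0.784 and 0.503 CPM to 6.88, 5.27 and 9.91 in ATLD (difference 3.71 ± 0.43). Slc38a3, a glutamine transporter, and Tmod2, a cap of actin filaments, had differences of 3.07 ± 0.27 and 2.73 ± 0.34. Chsy3, a chondroitin synthase, stayed far below WT at both days: it was at 0.0656 to 0.157 CPM and then 0.444 to 0.658 in ATLD, against 3.71 to 5.85 in WT. Ckb was called as falling in WT too, and so as opposite, in 7 of 22 other settings, including without replicate 1 of WT at either day, Slc38a3 in 5, and Tmod2 in 2, including without replicate 2 of WT at day 28.

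Among the ATLD-specific falls, Fosb, a subunit of the transcription factor AP-1 (chr7:19302696-19310051), went from 163, 109 and 122 CPM to 3.59, 2.52 and 15.6 in ATLD. It was at 264, 218 and 342 and then 172, 122 and 161 CPM in WT, and the difference was -3.33 ± 0.67 (adjusted p = 0.00161), or -4.57 without replicate 3 of ATLD at day 28. Pcsk6, a convertase that cuts growth factor precursors, fell from 39.4, 28.9 and 26.8 CPM to 4.22, 3.40 and 5.07 (difference -3.05 ± 0.26). The 4 other named falls, Fat2 (an atypical cadherin), Tenm3 and Tenm4 (teneurin adhesion proteins) and Col14a1 (a fibril-associated collagen), have long transcripts. Fat2 went from 48.6, 31 and 10.8 CPM to 2.88, 3.70 and 7.64 in ATLD, and Col14a1 from 35.5, 25.6 and 12.7 CPM to 2.41, 3.21 and 6.01. In each of these, replicate 3 was the lowest ATLD library at day 0 and the highest at day 28. Read levels of long genes relative to short ones also varied between these libraries, changing from 2000 to 10000 bases by -0.067, -0.438 and -0.411 in ATLD at day 0 and by -0.802, -0.517 and -0.343 at day 28 on the log2 scale, and by 0.299 to 0.541 in WT. With an offset for GC content and length the differences were -3.53 for Fat2, -3.61 for Tenm3, -2.93 for Tenm4 and -2.66 for Col14a1, against -3.68, -3.66, -3.12 and -2.67 without it. For Tenm3, with 39 and then 4 counts over the 3 ATLD libraries, the difference was -4.91 without replicate 3 of ATLD at day 28. A rise in WT was called too, making the change opposite, in 9 of 22 other settings for Tenm3 and in 7 for Fat2, in both without replicate 1 or 3 of ATLD at day 0 or replicate 3 of ATLD at day 28, and for Tenm3 also without replicate 2 of WT at day 28. Fosb was called as falling in WT too without replicate 3 of ATLD at day 28.

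Immediate early genes and NF-kB targets fell more often than they rose in ATLD. Of 21 immediate early genes, 11 fell and 1 rose in ATLD (median -0.73), 6 rose and 4 fell in WT, and the difference was negative for 10 and positive for 1. Klf4, a factor of barrier epithelia, rose from 13.6, 11 and 14.8 CPM to 51.9, 42.9 and 53.3 in WT and fell from 13.2, 10.3 and 9.53 CPM to 3.5, 3.34 and 5.14 in ATLD (difference -3.37 ± 0.26). Ier3, a survival gene, was the 1 member with a positive difference, 1.87 ± 0.24. Among 16 NF-kB subunits and targets, 7 fell and 1 rose in ATLD, and 4 rose and 2 fell in WT. The difference was negative for 9 and positive for 1 (56.2% and 6.2%, against 15.2% and 14.7% of all genes). Icam1, an adhesion molecule for leukocytes, rose from 44.1, 54.3 and 57.2 CPM to 118, 80.0 and 119 in WT and fell from 113, 100 and 99.0 CPM to 45.8, 42.9 and 51.7 in ATLD.

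Genes of the ERK pathway, downstream of Erbb2, had positive differences more often than negative ones, 8 against 3 of 19 (42.1% and 15.8%, median 0.31). Of all genes 14.7% were positive and 15.2% negative, so the negative share was close to the background. In WT 8 of the 19 fell and 2 rose, and in ATLD 7 rose and 5 fell. Etv1, an ETS factor stabilised by ERK, fell from 39.4, 35.4 and 40.9 CPM to 1.32, 1.57 and 1.48 in WT and rose from 6.58, 7.01 and 6.14 CPM to 15.8, 23.3 and 20.4 in ATLD (difference 6.32 ± 0.21, adjusted p = 1.93e-10). Spry4, a feedback inhibitor of the pathway, fell by 4.14 in WT and rose by 0.62 in ATLD. The negative differences were 5 without replicate 2 of WT or replicate 1 of ATLD at day 28, and 1 without replicate 1 of WT or replicate 2 of ATLD at day 28. Of 14 ERBB receptors and ligands, 5 had a positive and 2 a negative difference (35.7% and 14.3%), the negative share again being close to that of all genes. The 5 positive ones were 3 without replicate 1 of WT at day 0, replicate 3 of WT at day 28 or replicate 2 of ATLD at day 28. Nrg2, a ligand of Erbb4, fell from 18.7, 20 and 21.5 CPM to 3.97, 2.56 and 3.40 in WT and was at 6.17 to 8.35 CPM in ATLD.

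Developmental signalling genes were split. In the NOTCH pathway 5 of 14 differences were called positive and 2 negative (35.7% and 14.3%, against 14.7% and 15.2% of all genes). The median difference of the 14 was nonetheless negative, at -0.57. Hey1, a target that represses transcription, was opposite: 180, 183 and 199 CPM to 126, 110 and 118 in WT, and 60.9, 59.9 and 58.7 CPM to 298, 280 and 271 in ATLD (difference 2.91 ± 0.13, adjusted p = 1.87e-09). In the WNT pathway 3 of 19 were positive and 6 negative (15.8% and 31.6%), the positive share being close to the 14.7% of all genes. Axin2, a feedback target of beta-catenin, rose from 3.17, 3.68 and 3.57 CPM to 11.8, 7.75 and 11 in WT and fell from 9.44, 7.42 and 6.10 CPM to 1.43, 1.44 and 1.5 in ATLD, a difference of -3.95 ± 0.27, and the ligand Wnt10a had one of -3.64 ± 0.25. Of 18 TGF-beta and YAP response genes 8 were positive and 2 negative (44.4% and 11.1%). Id1, an inhibitor of helix-loop-helix factors, fell from 8.59, 8.44 and 8.50 CPM to 2.97, 2.45 and 3.49 in WT and rose from 7.11, 5.71 and 4.77 CPM to 37.6, 26.3 and 26 in ATLD.

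Interferon-stimulated genes, which the series title names, rose more often than they fell in WT. Of 58 tested, 32 rose and 7 fell in WT (median 0.57), 13 rose and 12 fell in ATLD (median 0.11), and the difference was negative for 16 and positive for 3 (median -0.38). Negative calls were thus 16 of 58 here, against 15.2% of all genes. The 59 annotated members summed to 1545 to 1811 CPM in WT at day 0 and to 2221 to 2736 at day 28. In ATLD they summed to 3213 to 3719 and then 3797 to 4590 CPM, above WT at both days. The WT libraries sequenced again with the ATLD ones summed to 1634 CPM at day 0 and 2771 at day 28. By class, 10 were WT-specific, 9 shared and 4 opposite (Mx1, Sp100, Psmb9 and Dtx3l). The rise of Psmb9 in WT was not called in 7 of 22 other settings, including without replicate 1 or 3 of WT at either day, and that of Dtx3l was not called in the second batch alone. Mx1, a GTPase that blocks viruses, rose from 3.69, 2.09 and 4.08 CPM to 9.15, 8.58 and 6.66 in WT and fell from 4.14, 2.11 and 2.60 CPM to 1.23, 1.16 and 1.08 in ATLD (difference -2.64 ± 0.38, adjusted p = 0.000114). Dtx3l, a ubiquitin ligase, rose by 0.56 and fell by 0.45. Of the 48 promoters of the list found in RefSeq, 43.8% hold the interferon-stimulated response element, against 3.1% of those of genes tested. Of the opposite genes, Psmb9, Dtx3l and both promoters of Sp100 had no match in this window. In the second batch alone 24 of the 58 were called in WT, against 39.

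Among the 8 Ifi200 genes tested, DNA-binding proteins with near-identical copies on chromosome 1, 6 rose in WT, and 3 rose and 1 fell in ATLD. The difference was negative for 3 and positive for 1 (37.5% and 12.5%, against 15.2% and 14.7% of all genes). Ifi202b rose from 15.3, 13.9 and 14.1 CPM to 40.8, 53.3 and 38.6 in WT and fell from 28.3, 29.5 and 27.7 CPM to 21.3, 22.1 and 18.4 in ATLD (difference -2.08 ± 0.18). Ifi204 was at 4.91 to 7.12 CPM in WT and rose from 10.4, 9.17 and 9.64 CPM to 28.5, 22.7 and 24.6 in ATLD. The DNA sensor Cgas fell in ATLD alone, from 10.3, 9.10 and 11.2 CPM to 3.34, 3.45 and 3.06, and was at 8.20 to 10.7 CPM in WT (difference -1.55 ± 0.20, adjusted p = 3.90e-05). Antigen presentation by MHC class I had 9 negative and no positive differences among 15 genes, with 5 rising in WT and 7 falling and 1 rising in ATLD. Tap1, which carries peptides to class I molecules, rose from 31, 34.4 and 37.4 CPM to 79.7, 49.7 and 69.6 in WT and fell from 104, 71.0 and 77.4 CPM to 55.7, 42.3 and 54.3 in ATLD. The count of 5 rising in WT was 2 without replicate 1 of WT at either day and 10 without replicate 2 of WT at day 28. H2-Ab1 and Cd74 of MHC class II rose in WT, H2-Ab1 from 1.17, 1.03 and 1.25 CPM to 15.9, 10.7 and 14.9, with 0.973 to 1.77 CPM in ATLD (difference -4.05 ± 0.28, and -5.35 in the second batch alone). Summed myeloid markers were at 7.08 to 12.4 CPM in the original WT libraries at day 0 and at 8.42 to 12 at day 28. In the WT libraries sequenced again with the ATLD ones they were at 2.73 and 2.88 CPM. The ATLD libraries held 3.15 to 3.6 and then 3.35 to 4.03 CPM. Whether other cells contributed was not tested.

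Metabolic, stress and matrix lists moved less evenly. Of 22 cholesterol synthesis genes, 16 fell and none rose in ATLD (median -0.46), and 2 rose and 3 fell in WT. The difference was negative for 8 and positive for 2 (36.4% and 9.1%, and 14 negative with the GC and length offset). Idi1, an isomerase of the pathway, rose from 28.9, 28.6 and 24.6 CPM to 53.9, 66.7 and 50.3 in WT and fell from 43.2, 54.9 and 52.8 CPM to 21.6, 30.8 and 24.9 in ATLD (difference -2.02 ± 0.21, adjusted p = 6.34e-06). Unfolded protein response genes had 11 positive and 1 negative difference of 20 (55.0% and 5.0%), with 11 falling and none rising in WT (median -0.32). That count was 3 in the second batch alone. Herpud1, of the endoplasmic reticulum's degradation machinery, fell by 0.42 in WT and rose by 0.62 in ATLD. Of 14 NRF2 targets, 7 rose and 3 fell in each genotype. The difference was positive for 5 and negative for 4 (35.7% and 28.6%, median 0.19), so the list was divided. Gsta4, a glutathione transferase, rose from 8.87, 10.3 and 8.31 CPM to 58.9, 62.8 and 57.6 in WT and fell from 22.7, 32.5 and 32.9 CPM to 8.42, 10.8 and 8.72 in ATLD (difference -4.36 ± 0.22). Matrix genes had 9 negative and 3 positive differences of 24 (37.5% and 12.5%, against 15.2% and 14.7% of all genes), and 5 negative in the second batch alone. In WT 10 of the 24 rose and 4 fell (median 0.51), and in ATLD 6 rose and 7 fell (median -0.05). Fn1, fibronectin, went against most of the list, with a positive difference of 3.69. It fell from 77.7, 128 and 136 CPM to 11.4, 9.76 and 13.1 in WT and overlapped between days in ATLD.

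Secreted factors associated with senescence had 11 negative and 4 positive differences of 24 (45.8% and 16.7%), with 9 rising and 9 falling in WT. Igfbp5, an abundant binding protein of insulin-like growth factors, fell from 9527, 9987 and 10759 CPM to 1973, 1861 and 1899 in WT and rose from 3615, 2720 and 2265 CPM to 6867, 6933 and 11173 in ATLD (difference 3.94 ± 0.28, adjusted p = 1.57e-07). Of the regulators of epithelial-mesenchymal transition, 4 of 15 were positive and 3 negative (26.7% and 20%). Snai1 rose from 0.256, 0.515 and 0.240 CPM to 4.77, 3.04 and 2.55 in ATLD and was at 0.385 to 1.21 CPM in WT, while its relative Snai2 rose by 0.67 in WT and fell by 1.02 in ATLD. Of 14 hormone-sensing luminal genes tested, 6 rose and 5 fell in WT, and 3 rose and 7 fell in ATLD. The difference was positive for 5 and negative for 4 (35.7% and 28.6%, median 0.31), so the list was divided. Its member Prlr fell in both genotypes, with a positive difference of 2.17. Ly6a, also known as Sca-1, and Wnt4 of this list were opposite, each rising in WT (1.90 and 0.66) and falling in ATLD (0.89 and 1.90). The rise of Wnt4 was not called in 5 of 22 other settings. These included leaving out replicate 1 of WT at either day or replicate 3 of WT at day 28.

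Genes that moved in the same direction by different amounts had their largest differences where WT moved further. H19, an imprinted non-coding RNA of fetal tissues (chr7:142575529-142578143), rose from 3.15, 4.38 and 4.63 CPM to 199, 157 and 203 in WT and from 5.25, 4.93 and 3.94 CPM to 9.83, 10.1 and 11.1 in ATLD (difference -4.39 ± 0.23, adjusted p = 6.54e-09). Mmp9, a gelatinase, rose from 0.438, 1.21 and 0.846 CPM to 53.8, 33.2 and 52.7 in WT and from 2.39, 0.941 and 0.787 CPM to 8.92, 13.9 and 11.5 in ATLD. Its difference was -2.80 ± 0.54, and -2.13 without replicate 1 of ATLD at day 0. Igfbp4, Prkg1, Pdzk1ip1 and Tfpi2 rose in both with differences of -2.72, -3.39, -2.72 and -3.06, the rise of Prkg1 in ATLD not being called in 5 of 22 other settings, including without replicate 2 of ATLD at day 0 or replicate 3 of ATLD at day 28. On the falling side, Muc20, a membrane mucin (chr16:32777419-32797435), went from 88.1, 95.7 and 87.7 CPM to 2.04, 1.70 and 2.45 in WT and from 210, 196 and 210 CPM to 113, 109 and 128 in ATLD (difference 4.62 ± 0.17, adjusted p = 4.17e-10). Ugt8a, a galactosyltransferase of membrane lipids, had a difference of 4.80 ± 0.22, and Slc28a3, a nucleoside transporter, one of 3.58 ± 0.20. Chn2 and Adamts8 fell with differences of 3.77 and 3.26. Tac1, the precursor of substance P, had 57 counts over the 3 WT libraries at day 0 and 2 at day 28, a ratio of CPM of 28.2 (95% exact interval 7.46 to 239, counting error only). Postn, the most abundant of the fibroblast markers searched, rose in both genotypes, from 967, 886 and 964 CPM to 2081, 2537 and 1868 in WT and from 644, 498 and 521 CPM to 804, 768 and 964 in ATLD. Its difference of -0.59 ± 0.20 (adjusted p = 0.0350) was called here but not in 10 of 22 other settings.

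Shared changes were those in which both genotypes moved by amounts that could be bounded within 2-fold of each other. Slc34a2, a phosphate transporter of secretory epithelia, fell from 9.72, 10.4 and 10.4 CPM to 1.69, 1.59 and 1.54 in WT and from 8.63, 6.63 and 7.02 CPM to 0.908, 1.25 and 1.24 in ATLD. The changes were -2.66 ± 0.16 and -2.71 ± 0.16, and their difference -0.05 ± 0.22 (adjusted p = 0.886). Vcam1, an adhesion receptor (chr3:116109949-116129688), fell from 33.3, 29.9 and 33.2 CPM to 6.48, 7.31 and 4.75 in WT and from 72.3, 70.5 and 72.9 CPM to 14, 16.4 and 15 in ATLD, so ATLD stayed above WT at both days while the changes differed by 0.13 ± 0.19. Rims3, Dtx4 (a regulator of NOTCH signalling), Adamts3 (a procollagen protease) and Blnk (an adaptor of B cell receptor signalling) fell by 1.38 to 2.45 in WT and by 1.42 to 2.03 in ATLD. Of these Blnk lay closest to the threshold for a difference (-0.55 ± 0.20, adjusted p = 0.0537). Rims3 and Blnk each left the shared class in 12 of 22 other settings, where the interval passed 2-fold or a difference was called: leaving out any of the 3 WT libraries at day 0, or replicate 1 of ATLD at day 0 or replicate 1 or 2 of ATLD at day 28, was enough for either. Replicate 1 or 3 of WT at day 28 did so for Rims3, and replicate 2 of WT at day 28 for Blnk.

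On the rising side of the shared genes, Olfml3, a secreted matrix protein (chr3:103722222-103738001), went from 4.28, 4.94 and 4.46 CPM to 16.5, 14.1 and 15.4 in WT and from 3.22, 2.94 and 4.18 CPM to 9.88, 9.43 and 9.54 in ATLD (difference -0.27 ± 0.19). Rflna, a filamin-binding protein, rose by 1.81 and 1.65 and was lower in ATLD at both days, at 1.52 to 2.01 and then 4.50 to 6.83 CPM, against 10.2 to 12.5 and then 31.2 to 48.4 in WT. Vsir, an immune checkpoint receptor, Kif1a, a motor of vesicle transport, Dlg4, a scaffold of synapses, and Gprasp2 rose by 1.26 to 1.60 in WT and by 1.32 to 1.58 in ATLD.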

How the data were processed

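Raw counts per gene, which the authors deposited in 1 table with a column of gene lengths, were made with featureCounts on mm10, per the submitters' processing notes, which also name DESeq2. No label or header names the aligner, the strand used for counting or the annotation: the sources used here do not give them. All 55536 gene IDs matched GENCODE vM21, which gave symbols, coordinates, GC content and transcript lengths. The library of each column was read from the labels.

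The 12 libraries were fitted together in R 4.3.3 with edgeR 4.0.16: genes with low counts were left out (filterByExpr, minimum count 10, minimum total 15), leaving 18079, TMM factors were computed, and glmQLFit and glmQLFTest were run on a model of 4 group means, with Benjamini-Hochberg adjusted p-values at 0.05, two-sided. Fold changes carry a prior count of 0.125. Standard errors are the absolute log2 change divided by the root of F. Depth was 30905703 to 51757203 counts per library, and intervals given for scarce genes cover counting error only. On simulated counts for this comparison (17772 genes, 200 changed), 59% of 2-fold and 99% of 4-fold changes were recovered and 4.82% of calls were false.

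Named genes were Mre11a and Erbb2, up to 6 per class and direction with the largest difference (shared: the largest smaller change) among genes whose log2 CPM averaged 1 or more, a regular symbol and days that do not overlap in each genotype called, and up to 4 per gene list with the smallest p. Other genes named in the text were chosen after their values were seen. The classes, members and lists were chosen with earlier results of these data known. Motifs were searched on both strands of RefSeq promoters (GRCm38.p6), which matched 11907 of the genes tested. Alternatives were other size factors, no filter, DESeq2 1.42.0, all 18 original libraries, the resequenced WT runs, the second batch alone, a replicate block, GC and length offsets, and leaving out each library.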

Additional observations from a re-analysis of the deposited data

Results flagged for a closer look

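The 1240 opposite genes are listed here because the effect of the same contrast had different signs in the 2 genotypes and the difference itself was tested with edgeR's quasi-likelihood test. Of the 12 named ones, those that rose in ATLD had differences on the log2 scale of 9.17 (Csn3), 7.89 (A2m), 7.65 (Ankrd1), 7.38 (Crispld2), 7.15 (Rtn1) and 7.12 (Them5). Those that fell in ATLD had differences of -10.67 (Stra6), -9.68 (Stmn2), -8.05 (Hmga2), -6.39 (Hhip), -6.13 (Alox12e) and -5.87 (Aqp3).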

How the results depend on the processing

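No called difference of a named gene changed sign under the 22 alternatives; differences near 0 did for 5 of the 12 named shared genes (Rflna, Kif1a, Slc34a2, Vcam1 and Adamts3) and for Cd3e. Of 183 named genes, 167 were called for the difference and 155 of these were called under every alternative that tested them; Aim2, Tmem173, Enpp1, H2-DMb1, Epgn, Dnajb9, Xbp1, mt-Nd5, Postn, Csf1r, Fcer1g and Kdr were not called in at least 1. Classes were less stable than calls of the difference: 102 of the 183 stayed in their class under every alternative, made up of 47 of 74 opposite, 18 of 31 WT-specific, 15 of 35 ATLD-specific, 16 of 27 with different sizes, 5 of 12 shared and 1 of 3 not called. Over all genes, 44.5 to 99.3% of the opposite, 38.8 to 97.0% of the WT-specific, 35.1 to 97.0% of the ATLD-specific and 17.0 to 95.1% of the shared genes were in the same class under an alternative, the lowest each time in the second batch alone; a replicate block gave 68.2, 72.2, 61.7 and 47.3%. More positive changes in ATLD made up 46.6 to 50.2% of calls and were the minority except with the GC content offset (3375 positive, 3353 negative) and the replicate block (2033 and 2020). Without the filter on low counts edgeR estimated 1 common spread for all genes (infinite prior degrees of freedom), so its p-values there are far smaller and are not read as support. The second batch alone, with 1 WT library a day assumed to vary like the ATLD ones, called 2832 differences, 1882 WT changes, 576 opposite, 656 WT-specific, 1295 ATLD-specific and 108 shared genes. The sign of the difference was the same there for all 1240 genes classed as opposite in the main fit. That fit used the same ATLD libraries, and the WT runs here are replicate 1 sequenced again. The shared sign is therefore no independent check. A GC content offset gave 895 shared genes, and a GC content and length offset, chosen after seeing the data, 1077 shared and 1921 opposite. A margin of 1.5-fold left 279 shared genes. Leaving out 1 library gave 4452 to 5955 differences, 3820 to 5672 WT and 4781 to 7163 ATLD changes, 1004 to 1427 opposite, 1244 to 1607 WT-specific, 1580 to 2112 ATLD-specific and 365 to 866 shared genes; the extremes for shared genes came without WT day 0 replicate 1 and WT day 28 replicate 2. Libraries with the same replicate number did not always deviate alike from their group means (same-number correlations -0.798, -0.521 and 0.594 in WT and -0.558, 0.034 and -0.568 in ATLD). Taken from means of only 3 libraries, these values cannot show whether equal numbers mark the same source. With a replicate block 4053 differences, 848 opposite and 281 shared genes were called. Depth limits genes with a few counts in a group, such as Dlx6, Cdh19 and Tac1 in WT at day 28.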

Other observations

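At day 14, which the difference at day 28 does not use, the 12 opposite genes named in the report had already moved in WT, each called in edgeR's quasi-likelihood test of the 18 original libraries. WT levels of Csn3 were 20, 13.4 and 22.8 CPM at day 14 and those of Crispld2 3.22, 4.41 and 3.51. Stmn2 was at 19.4, 19.9 and 18.4 CPM in WT at day 14 and Hhip at 17.3, 16.1 and 16.7, above all 3 WT libraries at day 28.

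In ATLD the same genes split by day 14. A2m and Them5 had risen by 2.90 ± 0.22 and 1.26 ± 0.20 on the log2 scale, and Stra6, Hmga2, Hhip, Alox12e and Aqp3 had fallen, Stra6 by 4.28 ± 0.49. Csn3, Ankrd1, Rtn1 and Stmn2 were not called at day 14 (adjusted p = 0.134, 0.545, 0.552 and 0.244). Crispld2 was lower at day 14 than at day 0 in ATLD, at 332, 329 and 349 CPM (change -0.53 ± 0.15, adjusted p = 0.0315), although it was higher than at day 0 by day 28. Alox12e was at 23.6, 34.8 and 29.5 CPM at day 14, below all 3 ATLD libraries of either other day. The day 14 changes share their day 0 libraries with the day 28 ones.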
